A study of Drosophila melanogaster with 4 samples.

Results

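Nuclear tRNA genes are the templates of the transfer RNAs used by cytoplasmic ribosomes. They were taken as every gene of biotype tRNA on the chromosome arms X, 2L, 2R, 3L, 3R and 4 in the Ensembl fly annotation, which gave 290 of 18164 annotated genes. Arm 2R carried 98 of them, 3R carried 79, 3L carried 48, 2L carried 41 and X carried 24, and none lay on arm 4. They were read in lists of genomic positions recovered by chromatin immunoprecipitation and sequencing (ChIP-seq), an assay that maps where a protein sits on DNA. A stable transgenic line of Drosophila melanogaster expressed the protein, CG1233, with green fluorescent protein (GFP) fused to its C terminus. All 4 biological replicates came from that 1 line and were untreated as far as the labels say, and each was made from whole embryos of both sexes collected at 0 to 24 h. They formed 1 group with no untagged line for comparison, so no conditions were compared. The labels conflict on these libraries: their descriptions name them input controls, yet an antibody to CG1233 and a transcription factor ChIP-seq assay are recorded for each. Every value rests on reading them as ChIP. Whole embryos mix many cell types, so a strong call in few cells and a weak call in many cannot be told apart.

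RNA polymerase III makes tRNA. Its promoter lies inside the tRNA gene, in a pair of short elements named the A box and the B box. The factor TFIIIC binds these boxes and places TFIIIB just upstream of the gene, and TFIIIB recruits the polymerase. Flies keep many tRNA genes in several copies, often in clusters and often inside introns of protein-coding genes. A ChIP call at a tRNA gene can therefore lie on the tRNA gene itself, on the start of a neighbouring protein-coding gene, or between them.

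Letters of the tRNA gene with the strongest call, tRNA:Tyr-GTA-1-8, are shown first, because its call lay upstream of the gene and not on it. The stretch is chr3R:8669081-8669378 on the minus strand of dm6, the Release 6 assembly, read from the RefSeq genome sequence. It is written 5′ to 3′ with the gene in capitals, and it starts 20 bases before the summit, the single position at which the call was highest. The summit lay 184 bp upstream of the gene start, so the first capital stands well downstream of it.
tRNA:Tyr-GTA-1-8 with its upstream stretch: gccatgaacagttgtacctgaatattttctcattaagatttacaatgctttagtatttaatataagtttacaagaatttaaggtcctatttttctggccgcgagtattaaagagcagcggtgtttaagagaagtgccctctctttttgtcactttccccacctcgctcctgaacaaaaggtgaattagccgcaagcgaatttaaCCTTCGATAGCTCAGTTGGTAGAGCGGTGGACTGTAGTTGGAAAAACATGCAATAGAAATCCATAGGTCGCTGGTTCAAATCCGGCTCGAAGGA

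The same gene is set beside other copies of its family to show how alike they are. The annotated exons of 9 of the 10 tyrosine tRNA genes were identical over all 73 bases, and the introns of these 9 were 20 to 113 bases long. Exons are in capitals and the intron, which is spliced out of the precursor, is in lower case. The genes lie on the minus strand of dm6 at chr3R:8642333-8642425, chr3R:8642701-8642793 and chr3R:8669081-8669174, in the order printed.
tRNA:Tyr-GTA-1-4: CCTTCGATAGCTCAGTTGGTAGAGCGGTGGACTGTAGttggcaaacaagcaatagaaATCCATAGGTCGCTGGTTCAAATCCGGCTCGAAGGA
tRNA:Tyr-GTA-1-5: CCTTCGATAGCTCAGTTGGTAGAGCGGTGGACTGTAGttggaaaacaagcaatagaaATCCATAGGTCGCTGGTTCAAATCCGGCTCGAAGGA
tRNA:Tyr-GTA-1-8: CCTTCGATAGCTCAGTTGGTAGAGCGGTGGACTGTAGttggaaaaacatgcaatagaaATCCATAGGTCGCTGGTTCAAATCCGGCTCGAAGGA

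The internal promoter elements are shown in tRNA:Leu-TAA-2-1, at chr3R:24112964-24113047 on the plus strand of dm6. Capitals mark first the A box core, searched as TNGCNNAG, and then the B box core, searched as GTTCGANNC.
tRNA:Leu-TAA-2-1: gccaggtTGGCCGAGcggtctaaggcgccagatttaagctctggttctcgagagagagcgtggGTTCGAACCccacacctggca

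In the authors' optimal list, few tRNA genes carried a call. That list holds the strongest calls made from the 4 replicates together, and 19 of the 290 tRNA genes (6.55%, exact 95% interval 3.99 to 10.04%) had 1 of its summits within 500 bp of their start. Over all annotated genes the share was 16.9%, and over protein-coding genes it was 19.9%, 2779 of 13945. A gene with several annotated starts counted when any of them had a summit, while each tRNA gene was read at a single start. The shares are therefore not fully alike, here and below. In the full pooled list of 30000 calls, weak background calls included, the tRNA share was the higher one, though its interval contained the protein-coding share. There 154 tRNA genes (53.1%, interval 47.18 to 58.96%) had a summit within 500 bp, against 43.6% of all genes and 47.8% of protein-coding genes. Of the 290 genes, 135 therefore had a pooled call that was too weak for the optimal list, and 49 had no call in any list.

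The replicates differed in how many tRNA genes they called. Each replicate was read at its own strongest calls, as many as the optimal list holds, so that every list was equally long. These are its strong calls in what follows. Replicate 1 called 44 tRNA genes (15.2%, with 17.1% of all genes) and replicate 2 called 15 (5.17%, with 16.2% of all genes). Replicate 3 called 70 (24.1%, with 17.5% of all genes) and replicate 4 called 16 (5.52%, with 16.8% of all genes). The mean was 36.25 ± 26.21 tRNA genes, or 12.5% ± 9.04 (SD, n = 4). Over protein-coding genes the same lists gave 19.7%, 19.3%, 20.2% and 19.8% in replicates 1 to 4, a mean of 19.7% ± 0.397. The spread between replicates was thus far wider at tRNA genes than at protein-coding genes. Other small RNA genes also spread more widely than protein-coding genes, with 14.8% ± 4.69 of the 32 snRNA genes and 9.48% ± 2.62 of the 269 snoRNA genes. These classes are far smaller than the protein-coding class, and counting error is larger in small classes. How much of their spread it makes was not tested. The snoRNA shares were 11.5%, 6.69%, 11.9% and 7.81% in replicates 1 to 4, the same order of replicates as at tRNA genes. The snRNA shares did not follow that order, with 21.9%, 12.5%, 12.5% and 12.5%. Nor did the shares of the 3261 genes of biotype ncRNA, with 7.94%, 6.75%, 7.67% and 7.33%. The tRNA share was above the protein-coding share in replicate 3 and below it in the other 3, and no label separates the replicates.

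**Figure D1:**
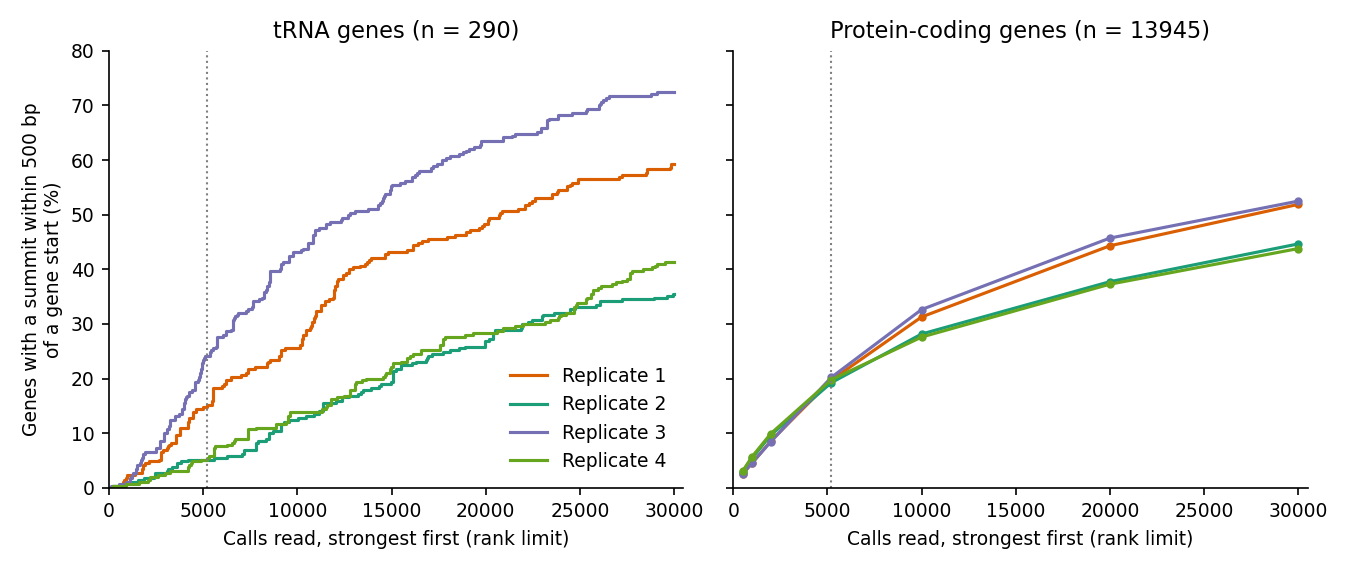
Share of tRNA genes (left, n = 290) and of protein-coding genes (right, n = 13945) with a summit within 500 bp of a gene start, in percent, against the number of calls read from the strongest down in each replicate list of 30000 calls. The dotted line marks the length of the optimal list, where the tRNA curves span 5.17 to 24.1% and the protein-coding curves 19.3 to 20.2%.

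Over all 30000 calls of each replicate, the tRNA share was above the protein-coding share in replicates 1 (59.3% against 51.9%) and 3 (72.4% against 52.5%) and below it in replicates 2 (35.5% against 44.6%) and 4 (41.4% against 43.8%). The difference between replicates was also seen at other depths of the lists. At the 1000 strongest calls, the replicates held 7, 3, 3 and 2 tRNA genes in order from replicate 1 to 4, and at 2000 they held 13, 5, 19 and 3. At 10000 they held 74, 36, 125 and 40, and at 20000 they held 140, 78, 184 and 82. Replicate 3 was therefore not ahead among the very strongest calls and was the highest from 2000 calls on in these counts. The number of calls with a −log10 q above 2 was 6697, 4575, 10424 and 5400 in replicates 1 to 4, in the same order as the tRNA counts. Its part in the result was not tested, and the sequencing depth of the replicates is unknown.

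Calls at tRNA genes were mostly not shared by all replicates. The same sharing over all genes is not given here, so it cannot be read as particular to tRNA genes. Shared percentages also depend on how many genes each replicate called. Of the 290 genes, 206 had no strong call in any replicate, 50 had one in a single replicate, 20 in a pair of replicates, 1 in 3 and 13 in all 4. All 13 genes called in every replicate were in the optimal list. Replicate 3 alone accounted for 38 genes and replicate 1 alone for 11, and a further 17 were called in these 2 replicates and in no other. Replicate 2 shared 13 genes with replicate 4, which was 86.7% of the genes in replicate 2 and 81.3% of those in replicate 4. Replicates 1 and 3 shared 31 genes, 70.5% of the genes in replicate 1 and 44.3% of those in replicate 3. Between replicates 2 and 3 the 14 shared genes were 93.3% of the former and 20% of the latter. The gene in 3 replicates was tRNA:Ser-AGA-2-4 on 2L, with ranks of 2758, 7907, 4127 and 4402 in replicates 1 to 4 and a pooled rank of 6465, outside the optimal list.

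**Figure D2:**
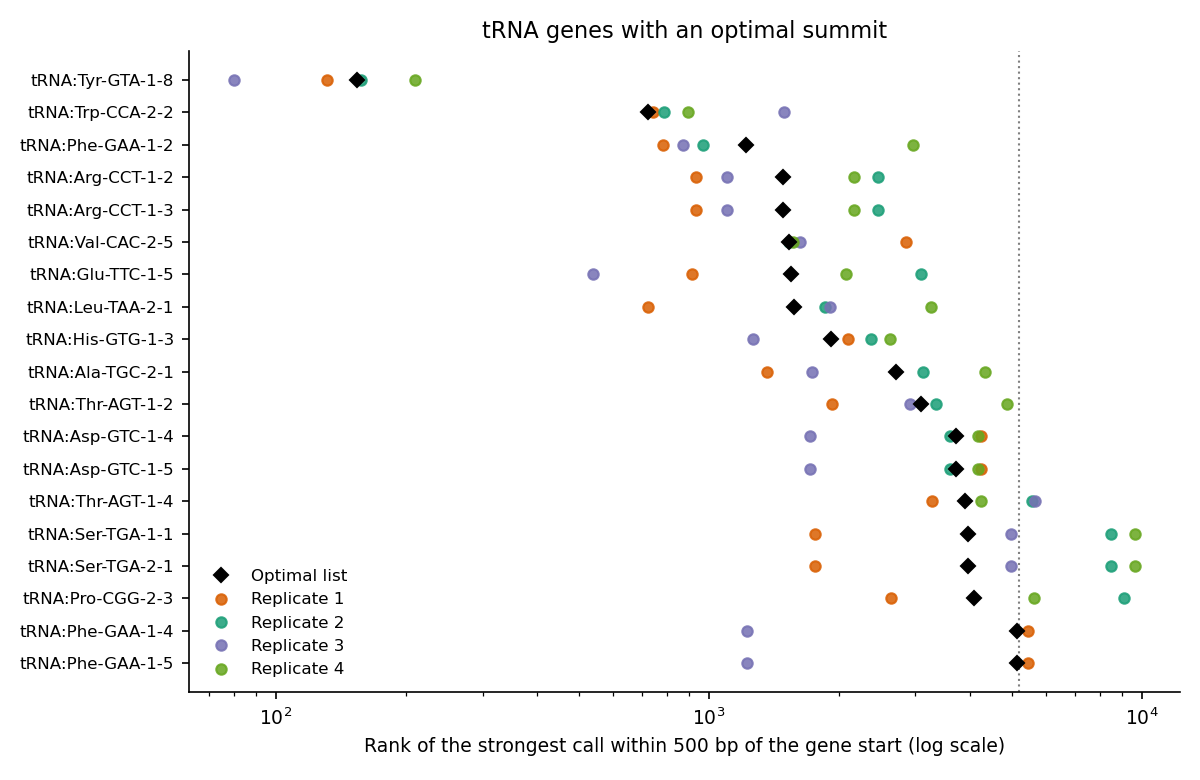
Rank of the strongest call within 500 bp of the start of each of the 19 tRNA genes with an optimal summit (log scale, 1 = strongest), in the optimal list (diamonds) and in each replicate list (circles). The dotted line marks the last rank of the optimal list; tRNA:Tyr-GTA-1-8 lies between rank 80 and 210 in all 4 replicates, and a circle is missing where a replicate had no call.

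The 19 genes were served by 16 optimal summits, 4 of which lay within 500 bp of a pair of tRNA gene starts. Their ranks in the optimal list ran from 154 to 5161 with a median of 2306, and 8 ranked above the middle of the list. All 4 replicates held 10 of the 16. A protein-coding transcription start site (TSS) lay within 500 bp of 9 of the 16 summits, and for 4 of these 9 it was closer to the summit than the tRNA start was. The other 7 summits had no protein-coding TSS within 500 bp, and 9 tRNA genes were served by them. None of the 16 lay inside a tRNA gene.

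The strongest of these calls was at tRNA:Tyr-GTA-1-8, which lies in an intron of CG8036, a transketolase-related gene, and of p. Its rank was 154 in the optimal list and 131, 157, 80 and 210 in replicates 1 to 4. The summits of the 4 replicates fell 180 to 195 bp upstream of the gene, within the stretch printed above. A CG8036 start was 260 bp from the optimal summit. The copy beside it, tRNA:Tyr-GTA-1-7, had its start 653 bp from the same summit, just outside the window. The copies tRNA:Tyr-GTA-1-4 and tRNA:Tyr-GTA-1-5, named after their values were seen because their exons are the same letters, had no optimal summit. They shared a call of rank 4196 in replicate 1 and of rank 4561 in replicate 3, had none in replicates 2 and 4, and had a pooled rank of 12942. Identical exons thus went with very different calls, and the replicate 3 summit at tRNA:Tyr-GTA-1-5 lay 4 bp before the gene start.

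Other calls with a protein-coding start nearby were at the tryptophan, phenylalanine, valine, leucine, histidine, aspartate, threonine and proline tRNA genes. At tRNA:Trp-CCA-2-2 (2R, rank 722) the summit lay 286 bp upstream of the tRNA gene and 1 bp from a CG30122 start, and the replicate ranks were 741, 788, 1487 and 897. At tRNA:Phe-GAA-1-2 (X, rank 1221) it lay 328 bp downstream of the tRNA start and 23 bp from a start of RpL17, a protein of the large ribosomal subunit. At both, the summit thus lay within 23 bp of the protein-coding start. At tRNA:Val-CAC-2-5 (3R, rank 1534), within an intron of the nicotinamidase gene Naam, the summit was 462 bp from the tRNA start and 437 bp from a Naam start. At tRNA:His-GTG-1-3 (2R, rank 1914) it was 159 bp upstream of the tRNA gene and 91 bp from a CG8490 start. These 4 are the summits that lay closer to the protein-coding start.

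At the other 5, tRNA:Tyr-GTA-1-8 among them, the tRNA start was the closer one. The summit at tRNA:Leu-TAA-2-1 (3R, rank 1574) lay 223 bp upstream of that gene and 352 bp from a CG13605 start, and its replicate ranks were 725, 1857, 1902 and 3255. The summit of tRNA:Asp-GTC-1-4 and tRNA:Asp-GTC-1-5 (2L, rank 3714) was 251 bp from a start of the axon guidance gene Sema1a and 135 bp from the nearer tRNA start. The threonine gene tRNA:Thr-AGT-1-4 (3R, rank 3898), in an intron of CG31279, had a summit 102 bp upstream, and its replicate ranks were 3267, 5588, 5679 and 4248, so only replicates 1 and 4 held it. The proline gene tRNA:Pro-CGG-2-3 (3L, rank 4092) overlaps an exon of not, which encodes the ubiquitin protease Nonstop, and its summit lay 137 bp upstream. That call ranked 2632, 9108 and 5628 in replicates 1, 2 and 4 and was missing from replicate 3, the replicate with the most tRNA calls.

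The 7 summits without a protein-coding start within 500 bp were all on arm 2R. Of them, 3 lay between a pair of tRNA genes that point away from each other. The first, at tRNA:Arg-CCT-1-2 and tRNA:Arg-CCT-1-3, had rank 1481 and replicate ranks of 936, 2456, 1102 and 2163, with the nearest protein-coding start 4443 bp away. The second, at the serine genes tRNA:Ser-TGA-1-1 and tRNA:Ser-TGA-2-1, had rank 3972 and replicate ranks of 1761, 8503, 4996 and 9627. The third, at tRNA:Phe-GAA-1-4 and tRNA:Phe-GAA-1-5, had rank 5137, with rank 5453 in replicate 1, rank 1222 in replicate 3 and no call in the other 2 replicates. The first was thus strong in every replicate, and the other 2 were carried by some of them.

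A further 2 of the 7 lay at tRNA:Glu-TTC-1-5, 319 and 116 bp from its start, with ranks 1545 and 5161, and the nearest protein-coding start was 13136 bp from the first and 13339 bp from the second. A snoRNA gene, snoRNA:185, also starts within 500 bp of both. The replicate ranks of the strongest call there were 913, 3084, 540 and 2076. The alanine gene tRNA:Ala-TGC-2-1 had a summit of rank 2699, 383 bp downstream of its start, and ranks of 1359, 3115, 1728 and 4334. The threonine gene tRNA:Thr-AGT-1-2, which overlaps an exon of CG12831, had a summit of rank 3095, 89 bp upstream, and ranks of 1920, 3344, 2908 and 4881. Both genes were therefore called in all 4 replicates with the nearest protein-coding start 1995 and 2350 bp from the summit.

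**Figure D3:**
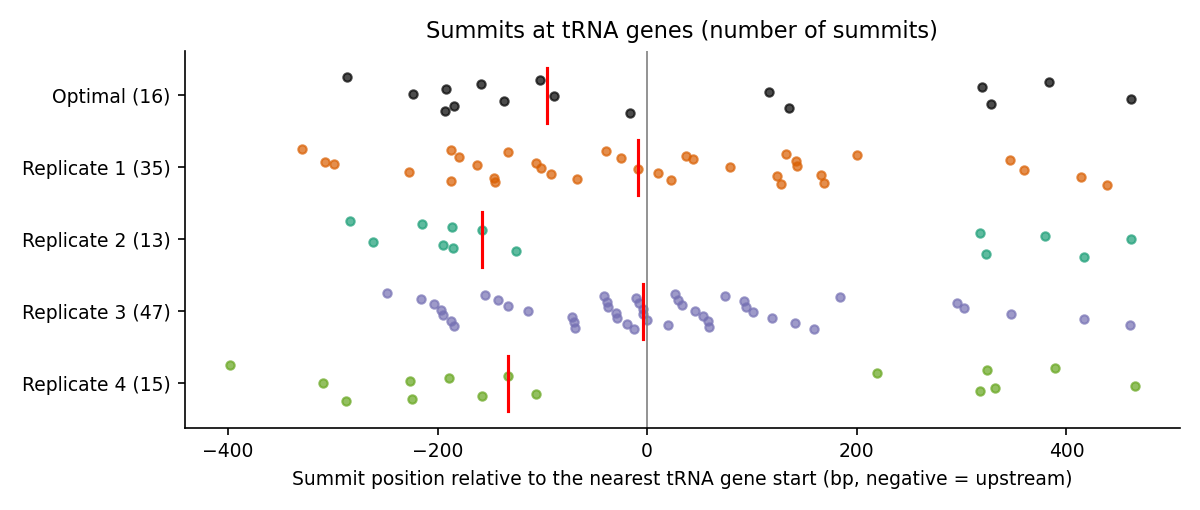
Position of each summit relative to the start of the nearest tRNA gene in bp, negative being upstream, for the optimal list and the strong calls of each replicate (number of summits in parentheses). Red bars are medians; 42 of the 47 summits in replicate 3 lie within 250 bp of the start, against 6 of 13 in replicate 2.

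Where the summits fell also differed between replicates. In replicate 3, 9 of 47 summits near tRNA genes lay inside a tRNA gene, and in replicate 1 it was 4 of 35, while replicates 2 and 4 had 0 of 13 and 0 of 15. The median distance to the nearest tRNA start was 143 bp in replicate 1, 262 bp in replicate 2, 74 bp in replicate 3 and 287 bp in replicate 4. Summits within 500 bp of a protein-coding TSS had median distances of 107, 134, 98 and 147 bp in the same replicates. The replicates therefore came in the same order at both kinds of gene, with a wider range at tRNA genes. A protein-coding TSS lay within 500 bp of 31.4%, 53.8%, 25.5% and 53.3% of the tRNA summits in replicates 1 to 4, and of 56.3% in the optimal list. In the full pooled list 136 summits lay near tRNA genes, of which 31 were inside one and 14.0% had a protein-coding TSS within 500 bp.

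Genes with a protein-coding start close by were called more often at the strong end of the lists. Of the 290 tRNA genes, 32 had a protein-coding TSS within 500 bp of their start. An optimal summit was found at 8 of these 32 (25%, exact interval 11.46 to 43.4%) and at 11 of the other 258 (4.26%, 2.15 to 7.5%), a difference of 20.74 percentage points. In replicates 1 to 4 the difference was 21.58, 15.26, 11.51 and 18.39 points, above 0 in 4 of 4, with a mean of 16.68 ± 4.31 (SD, n = 4). The exact two-sided sign-flip permutation test over replicates gave p = 0.13, the smallest value that 4 replicates allow, so this test could not have passed 0.05. With any pooled call the shares were 50% and 53.5%, so the difference was -3.49 points and turned in direction. With the TSS limit at 200 bp it was -6.62 points, but only 3 genes were then near and none had a call in any of these lists. Over all protein-coding genes the optimal share was 19.9%, which lies within the interval of the near genes. The near shares in replicates 1 to 4 were 34.4%, 18.75%, 34.4% and 21.9%, beside protein-coding shares of 19.7%, 19.3%, 20.2% and 19.8%. The window around a near tRNA gene also takes in the protein-coding start, and how much of the difference this makes was not tested.

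**Figure D4:**
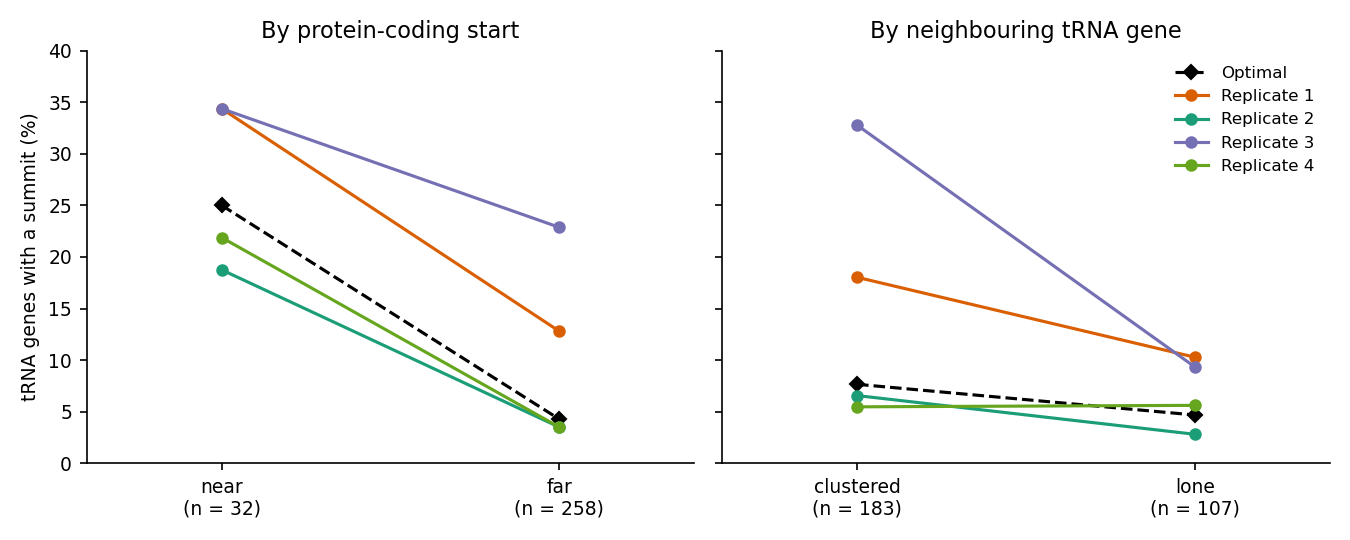
Share of tRNA genes with a summit within 500 bp, in percent, for genes with and without a protein-coding TSS within 500 bp (left; near, n = 32, and far, n = 258) and for genes with and without another tRNA gene start within 1000 bp (right; clustered, n = 183, and lone, n = 107). Points are the optimal list (dashed) and the 4 replicates; all lines fall from near to far, while replicate 4 is nearly level from clustered to lone.

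Counted by gene, the share of clustered genes with a call was not clearly above that of lone genes. With genes chained wherever starts lay within 1000 bp, the 290 genes formed 175 loci, 107 of them a single gene and the largest holding 7 genes. An optimal summit was found at 14 of 183 clustered genes (7.65%, exact interval 4.25 to 12.5%) and 5 of 107 lone genes (4.67%, 1.53 to 10.57%). The replicate differences were 7.75, 3.75, 23.44 and -0.143 points, a mean of 8.70 ± 10.34, and the exact two-sided sign-flip permutation p was 0.25. The difference was above 0 in 3 of 4 replicates. Its mean was smaller than the SD of the single replicates, which is not the error of the mean. A cluster offers several starts to 1 call, and clustered genes share summits. Counted by locus, 9 of 58 loci of 2 or 3 genes, 1 of 10 loci of 4 or more genes and 5 of 107 lone genes had an optimal summit. The locus differences in replicates 1 to 4 were 17.66, 11.9, 33.3 and 6.16 points (mean 17.26 ± 11.68, exact sign-flip permutation p = 0.13, the smallest possible). With the cluster limit at 5000 bp the optimal difference by gene was -0.0369 points.

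The splits together separated the genes further. Near and far were again measured from the tRNA gene start. Lone far genes had an optimal summit in 1 of 98 cases and clustered far genes in 10 of 160. The lone far gene was tRNA:Val-CAC-2-5, whose summit itself lay 437 bp from a Naam start. Lone near genes had an optimal summit in 4 of 9 cases and clustered near genes in 4 of 23. These counts are small and were not tested. Genes inside introns of protein-coding genes had an optimal summit in 3 of 127 cases (2.36%, exact interval 0.49 to 6.75%). Genes outside protein-coding genes had an optimal summit in 14 of 156 (8.97%, 4.99 to 14.6%). The replicate shares were 7.09%, 2.36%, 18.1% and 2.36% for intronic genes and 20.5%, 7.05%, 29.5% and 7.69% outside protein-coding genes. Genes outside protein-coding genes thus had a higher share than intronic genes in every replicate. Of the 7 genes that overlap an exon of a protein-coding gene, 2 had an optimal summit, tRNA:Thr-AGT-1-2 and tRNA:Pro-CGG-2-3. In replicates 1 to 4, 3, 1, 1 and 1 of them had a strong call. By arm, 11 of 98 genes on 2R had an optimal summit, with 4 of 79 on 3R, 2 of 41 on 2L, 1 of 48 on 3L and 1 of 24 on X. On 2R, the arginine, serine and phenylalanine pairs each shared a summit. The shares of all genes by arm and by place are not given, so tRNA genes were not compared with other genes in these classes.

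Orientation of neighbouring genes was examined after the divergent summits had been seen. Of the neighbouring pairs within 1000 bp, 25 were divergent, 68 ran in tandem and 22 were convergent. An optimal summit lay between the starts of 3 divergent pairs and of no tandem or convergent pair. In replicates 1 to 4 it was 4, 1, 7 and 1 divergent pairs, 2, 0, 11 and 0 tandem pairs, and 2, 0, 2 and 0 convergent pairs. Replicate 3 thus had more tandem than divergent pairs with a summit between them, though a lower share of them, 16.2% against 28.0%. In the pooled list the shares were 28.0% of divergent, 32.4% of tandem and 40.9% of convergent pairs.

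**Figure D5:**
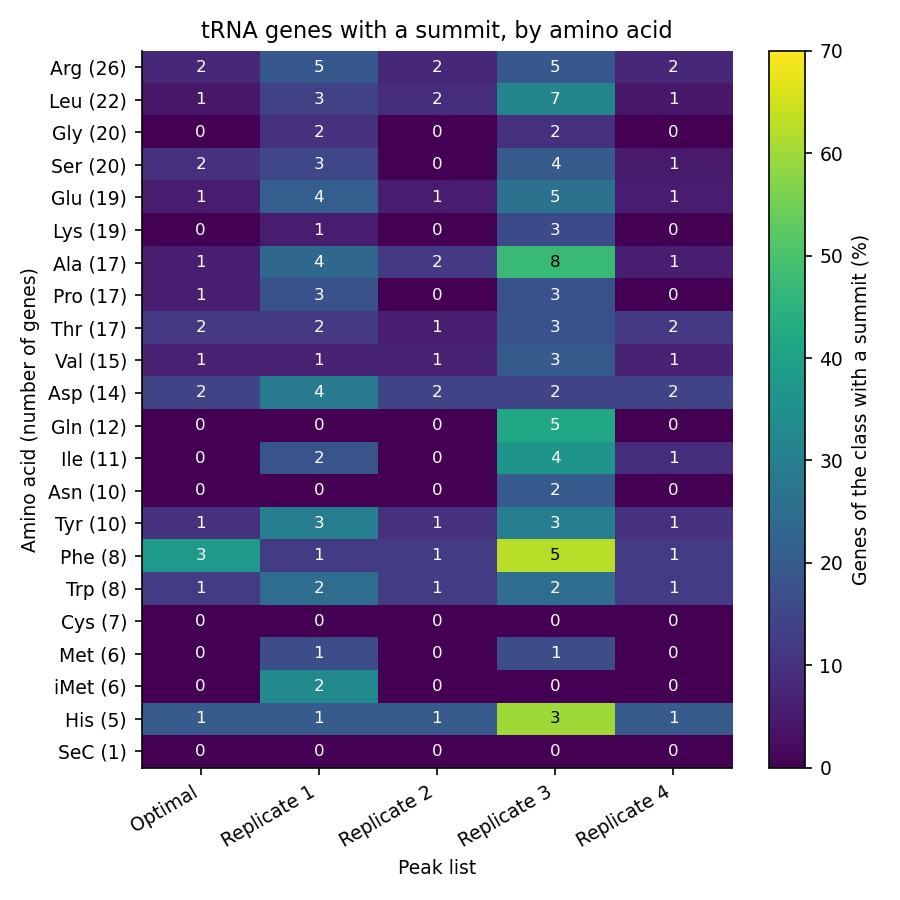
Number of tRNA genes of each amino acid class with a summit within 500 bp of their start, in the optimal list and among the strong calls of each replicate; colour gives the same count as a percentage of the class (class size in parentheses). Counts are small throughout, and the highest is 8 of 17 alanine genes in replicate 3.

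Calls were spread over many amino acids. The genes fell into 22 classes, initiator methionine and selenocysteine among them, with 44 anticodons. Optimal summits were spread over 13 classes. They were found at 3 of 8 phenylalanine genes, 2 of 26 arginine, 2 of 14 aspartate, 2 of 20 serine and 2 of 17 threonine genes. A further 8 classes had 1 gene each. The arginine pair shared 1 summit, as did the aspartate pair, the serine pair and 2 of the phenylalanine genes. Genes within 500 bp of the same summit were counted separately, in replicate 3 as well. The 9 classes without an optimal summit had 1 to 20 genes each, the largest being glycine with 20 and lysine with 19. In replicate 3, 8 of 17 alanine, 7 of 22 leucine, 5 of 8 phenylalanine, 5 of 12 glutamine and 3 of 5 histidine genes were called. Glutamine genes had no strong call in any other replicate. Cysteine genes, 7 in all, had none in any replicate, although 4 of them had a weak pooled call. Over all 290 tRNA genes the share was 6.55% in the optimal list and 15.2%, 5.17%, 24.1% and 5.52% in replicates 1 to 4. Over all annotated genes it was 16.9% in the optimal list and 16.2 to 17.5% in the replicates. No class was tested against these shares, and counts this small do not set a class apart.

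Copy number and repeated sequence were also read, since reads from identical copies cannot always be placed. The 290 genes had 95 distinct sequences, and 238 genes had at least 1 identical copy. An optimal summit was found at 5 of 52 genes with a sequence of their own, 4 of 103 with 2 to 5 copies and 10 of 135 with 6 or more. The share did not fall steadily with copy number. The share of 31-base words in the window around each gene that recur on the arms was under 5% for 81 genes, of which 8 had an optimal summit, and from 5 to 25% for 194 genes, of which 11 had one. At 25% or more there were 15 genes with no optimal summit (exact interval up to 21.8%) and 1 with a pooled call. How the authors treated reads with several matches is not given in the sources used here, so a missing call in such windows does not show a missing signal.

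The cores of the internal promoter were read in the genes and around the summits. The B box core GTTCGANNC, on the strand of the gene, was present in 160 of the 290 genes and in 9 of the 19 with an optimal summit. The A box core TNGCNNAG was present in 144 and in 8. Searched on both strands, the B box core occurred in 2.79% of protein-coding promoters (250 bases before to 50 after the start, a longer window than at the summits), in 0.729% of the 50 bp flanks of all optimal summits and at 3 of the 16 summits near tRNA genes. The A box core occurred in 37.6% of promoters, 13.3% of optimal summits and 2 of the 16. These are matches of letters only, and a flank can take in part of the tRNA gene.

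Just beyond the optimal list came 10 tRNA genes with pooled ranks from 5418 to 6465. The first was tRNA:Leu-CAG-1-6 (3L), with a summit 223 bp upstream and replicate ranks of 3075, 3838, 10799 and 25720. It was followed by tRNA:Ala-AGC-2-8 at rank 5607, tRNA:iMet-CAT-1-4 at 5635, and the arginine cluster tRNA:Arg-ACG-1-7, tRNA:Arg-ACG-1-8, tRNA:Arg-ACG-1-9 and tRNA:Arg-ACG-1-10 on 3R, which shared a call of rank 5657. The last were tRNA:His-GTG-1-4 at 6153, tRNA:Leu-CAG-1-1 at 6393 and tRNA:Ser-AGA-2-4 at 6465. These genes were picked as the next in pooled rank, so their nearness in rank to the optimal genes was set by that choice. The 500 bp limit cut a continuum, since 16 further genes had an optimal summit between 500 and 1000 bp away. The nearest of them were tRNA:Ile-AAT-1-9 at 518 bp and tRNA:Gly-GCC-1-9 at 525 bp. Several of these genes lay beside a summit already counted for another tRNA gene. The summit of rank 722 at tRNA:Gly-GCC-1-9 and that of rank 154 at tRNA:Tyr-GTA-1-7 are examples. The share of all genes at this distance is not given.

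Other genes of the polymerase III pathway were read the same way, from lists chosen with earlier results of these data known. Of 110 genes for other short RNAs made by the enzyme, the 100 genes and pseudogenes of 5S ribosomal RNA had no call in any list, and they are repeated copies. Of the other 10, 3 had an optimal summit: snRNA:U6:96Ab and snRNA:U6:96Ac, copies of the spliceosomal U6 RNA that shared rank 3217, and snRNA:7SKa, which restrains transcription elongation, at rank 3796. The replicates called 4, 2, 2 and 3 of the 10, beside 16.2 to 17.5% of all genes there and 16.9% in the optimal list. Counts this small do not set the 10 apart.

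Genes listed for proteins of tRNA production were called in similar numbers in every replicate, as were protein-coding genes as a whole. The share of all protein-coding genes was 19.9% in the optimal list and 19.7%, 19.3%, 20.2% and 19.8% in replicates 1 to 4. The listed symbols of TFIIIC subunits Gtf3c1 to Gtf3c6, and TfIIIA, matched no gene name, so those genes were not read under these names. Of 27 genes of the transcription machinery that matched, 8 had an optimal summit, and 8, 7, 9 and 9 had a strong call in replicates 1 to 4. They were led by Bdp1 (rank 210), Polr3E (rank 243) and Brf (rank 258), of which Bdp1 and Brf encode parts of TFIIIB and Polr3E a polymerase subunit. Further ones were the shared subunit genes Polr2H (rank 1062) and Polr2F (rank 1354), l(2)37Cd (rank 2986) and CG8950 (rank 4178). Of 29 genes on the list drawn up for tRNA processing and modification, 10 had an optimal summit. A place on this list does not show that a gene acts on tRNA. Each replicate had 8 with a strong call, in part different genes, and Tcs5, Trmt6, Trmt61 and Archease were the ones called in all 4. The strongest were Tcs5 (rank 22), a kinase of the complex that makes the t6A base, and the methyltransferase genes Trmt61 (rank 255) and Trmt6 (rank 565). Others were the tRNA ligase cofactor Archease (rank 2395), the RNase P subunits Rpp20 (rank 3291) and Pop5 (rank 3461), the 3′ processing enzyme RNaseZ (rank 3400), Nufip (rank 4499) and La (rank 4548), which binds new transcripts of the polymerase.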

How the data were processed

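The authors deposited peak lists on dm6, per the text files of the samples: 1 list of 30000 calls for each of the 4 replicates, all against 1 shared control set, 1 pooled list and 1 optimal list from an irreproducible discovery rate step. Fragments were 200 to 800 bp, per the labels. The aligner, the peak caller and their versions are not given in the sources used here. The signal column deposited by the authors is a score per call and was used only to rank calls within a list. The deposited −log10 q column was used only as a limit of 2, and the deposited p column holds no values. Tested on the files, the optimal list is the top 5211 calls of the pooled list. No read counts are given, so depth is unknown and no value was weighted by it.

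Genes and starts came from Ensembl release 115, without transposable elements, and sequence from the RefSeq genome of the same assembly, beyond whose arms 0 calls ended. A gene was called when a summit lay within 500 bp of any of its annotated starts. Intervals are 95% exact Clopper-Pearson intervals, cover counting error only and treat neighbouring genes as independent, which they are not. Replicate differences were tested by an exact two-sided sign-flip permutation test. Labels do not say whether the replicates came from separate collections, so p-values measure the spread between these samples only. Named tRNA genes are those with an optimal summit, the 10 next strongest in the pooled list, and others stated as chosen later. Not every gene of the lists is reported here. In the lists, symbols that matched no gene or repeated one were dropped, and zip, which matched an old synonym of cbe, was set aside. Alternatives were other windows, limits, lists and each replicate left out. The members, lists and tests were chosen with earlier results of these data known. Python 3.11.15, pandas 2.3.3, numpy 2.4.6, scipy 1.17.1 and matplotlib 3.10.9 were used, and counting was tested on simulated data.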

Additional observations from a re-analysis of the deposited data

Results flagged for a closer look

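In each of 4 results 1 replicate stood far from the other 3. Chance alone gives this in about 1 in 20 groups of continuous values, and more often where counts are small and tied, as in the first 2 results. On arm X, replicate 3 called 8.33% of the tRNA genes (2 of 24), and the other replicates called 1 of 24 each, a difference of a single gene. Among the 7 tRNA genes that overlap an exon of a protein-coding gene, replicate 1 called 42.86% (3 of 7) and the other replicates 1 each. At tRNA:Val-CAC-2-5 the call had rank 2858 in replicate 1, and ranks of 1533, 1619 and 1567 in replicates 2 to 4. In the second optimal peak at tRNA:Glu-TTC-1-5, the call of replicate 2 had rank 28755, and those of replicates 1, 3 and 4 had ranks of 2654, 540 and 2076. In replicates 3 and 4 these are the same calls as in the stronger peak beside it, where replicate 2 had rank 3084, so the ranks do not compare a separate second call.

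Outside the nuclear genes, replicate 3 had 4 calls on the mitochondrial genome, and the other 3 replicates had 0 there. Replicate 3 is also the replicate with the most calls at nuclear tRNA genes.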

How the results depend on the processing

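The count of 19 tRNA genes with an optimal summit became 11 with a 200 bp window, 35 with 1000 bp, 9 in the upper 50% of the optimal peaks and 12 in peaks held by all 4 replicates. It was 21 by distance to the nearest base of the gene, and 12 to 13 in peaks held by all replicates other than 1 left out. The mean of 36.25 genes per replicate became 54.5 with calls above the q limit, 151.2 with all calls and 23.25 with a 200 bp window. It was 54.25 with 1000 bp and 25 to 43.33 with 1 replicate left out. The difference between genes near and far from a protein-coding TSS, 20.74 points, became 8.39 with a 1000 bp limit and reversed to -6.62 with a 200 bp limit, where 3 genes are near, and to -3.49 with any pooled call. It was 12.91 to 16.04 in peaks held by all replicates other than 1 left out, which changes both the peaks and the replicates. The difference between clustered and lone genes, 2.98 points, reversed to -0.0369 with a 5000 bp limit. It was 1.80 with 500 bp, 18.99 with any pooled call, 10.03 by locus and 2.66 to 3.6 in peaks held by all replicates other than 1 left out. Chosen after seeing the data were genes with under 5% repeated sequence, where the differences were 34.37 and 12.38, and each replicate alone, where only the clustered difference in replicate 4 reversed, at -0.143. Beyond what their own construction sets, the cause of these moves was not tested. No paired analysis was possible because the samples form 1 group. Depth is unknown, so a missing call does not show a missing signal.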
